A study of Homo sapiens with 6 samples.

Results

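Long noncoding RNAs (lncRNAs) that lie antisense to a protein-coding gene and run across its start were examined in K562 cells, a human chronic myelogenous leukemia line with erythroid features. Counted transcripts were joined by transcript ID to the GENCODE annotation. An lncRNA was kept if its gene overlapped coding genes only on the opposite strand and its counted transcript covered the annotated 5′ end of such a gene. Divergent transcripts with symbols ending in -DT, names starting with SNHG or MIR, and a short list of further names were left out. Small RNA host genes with other names can remain. This left 1271 transcripts of 1269 lncRNA genes among 37255 matched transcription units (TUs) longer than 1000 bp. The coding genes whose starts they covered numbered 1411, and each is called a start gene below. For comparison, 683 antisense lncRNAs ran over the end but not the start of a coding gene, and 2560 lay wholly inside one.

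The measurements were 4 RNA-seq libraries of total RNA depleted of ribosomal RNA and 2 PRO-seq libraries, all from untreated K562 cells grown in the same flask. PRO-seq maps RNA polymerases engaged in transcription and stands for RNA production, although their density also depends on how fast they elongate, whereas RNA-seq reads the RNA present at steady state. With no separate cultures, p-values measure only the spread between libraries. The ratio of RNA-seq to PRO-seq level, each in TPM (counts per base, scaled to the same total in every library), is proportional to RNA half-life at steady state if elongation rates are alike, and it is given as a log2 relative half-life on which the median mRNA is 0.

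Antisense transcripts that cross a gene's start can arise from promoters of their own inside or downstream of the gene, and their polymerases then read through the promoter of the coding gene against its direction. Some such RNAs are spliced and stable, while many others are degraded in the nucleus soon after they are made. Known members include HOTAIR and CDKN2B-AS1 (ANRIL), which have been studied as regulators of chromatin at HOX and INK4 genes.

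Each library held between 5732780 and 9002746 counts on TUs for RNA-seq and 6993816 or 7245632 for PRO-seq. Fetal and embryonic globin genes and erythroid regulators were present in every RNA-seq library, from 79.7 TPM for TAL1 to 6287 TPM for HBG2, whereas CD3E, MS4A1, ALB and COL1A1 were at most 0.483 TPM and PECAM1 was not matched. In these bulk libraries, fewer cells with an RNA and less RNA per cell cannot be told apart. Whether strand was used in the counting is not stated, so reads from an antisense RNA and from its start gene may not be fully told apart. In PRO-seq, counted along the transcript except its ends, this can reach any span shared with a coding gene, which by the rule each lncRNA has. In RNA-seq it can reach exons that share bases. Exon bases were shared by 887 (69.8%) of the antisense lncRNAs, and a median of 10.5% of exon bases over the whole set lay under a coding exon.

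The geometry of the pairs is shown by the promoter windows of RefSeq (GRCh38.p14, 250 bases before to 50 after the start, read along each gene's own strand). The windows of CARD8-AS1 and CARD8, GATA2-AS1 and GATA2, and TMPO-AS1 and TMPO are printed because the 3 lncRNAs differ widely in relative half-life, although others described below are lower still. In each of these pairs the RNAs face one another and cross, so that each promoter lies within the transcribed region of the other gene. CARD8-AS1 is on the plus strand of chromosome 19 and its window is chr19:48255425-48255724, 271 bp inside CARD8, whose window on the minus strand is chr19:48255897-48256196. GATA2-AS1 is on the plus strand of chromosome 3 with its window at chr3:128488953-128489252, 3998 bp inside GATA2, whose minus-strand window is chr3:128493152-128493451. TMPO-AS1 is on the minus strand of chromosome 12 with its window at chr12:98516177-98516476, 653 bp inside TMPO, whose plus-strand window is chr12:98515323-98515622. TUBA1B-AS1, on the plus strand of chromosome 12 at chr12:49131356-49131655, is printed as a case that depends on the annotation. Its RefSeq window shares 290 of 300 bases with that of TUBA1B, and the RefSeq starts point away from each other 211 bp apart, whereas the GENCODE gene start of TUBA1B lies inside TUBA1B-AS1. Capitals mark exact matches, on either strand, to the letters searched for 6 motifs, and adjacent matches can overlap. For the TATA box these were TATAAA. For the GC box, bound by Sp1, they were GGGCGG. The pentamer CCAAT was searched under its own name. For factors of the ETS family the letters were CCGGAAG. For NRF1 the part searched was CATGCGC, and for YY1 the core was AAGATGGC.
CARD8-AS1: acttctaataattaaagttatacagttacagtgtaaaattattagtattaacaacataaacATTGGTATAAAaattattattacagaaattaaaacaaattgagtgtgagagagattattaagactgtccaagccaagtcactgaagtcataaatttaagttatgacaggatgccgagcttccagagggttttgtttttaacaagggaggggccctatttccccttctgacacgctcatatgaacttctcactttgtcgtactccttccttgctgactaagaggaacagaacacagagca
CARD8: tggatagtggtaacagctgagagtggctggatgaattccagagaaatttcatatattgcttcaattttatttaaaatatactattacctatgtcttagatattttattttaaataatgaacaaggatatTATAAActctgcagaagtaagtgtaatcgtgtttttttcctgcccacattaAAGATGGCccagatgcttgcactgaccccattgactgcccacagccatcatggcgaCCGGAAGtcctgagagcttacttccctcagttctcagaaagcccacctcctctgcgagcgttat
GATA2-AS1: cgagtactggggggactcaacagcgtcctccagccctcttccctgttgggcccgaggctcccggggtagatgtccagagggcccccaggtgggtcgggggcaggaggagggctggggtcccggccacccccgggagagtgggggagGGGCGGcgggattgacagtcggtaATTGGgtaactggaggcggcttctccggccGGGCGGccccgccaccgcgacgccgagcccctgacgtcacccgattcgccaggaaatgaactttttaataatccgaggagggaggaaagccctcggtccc
GATA2: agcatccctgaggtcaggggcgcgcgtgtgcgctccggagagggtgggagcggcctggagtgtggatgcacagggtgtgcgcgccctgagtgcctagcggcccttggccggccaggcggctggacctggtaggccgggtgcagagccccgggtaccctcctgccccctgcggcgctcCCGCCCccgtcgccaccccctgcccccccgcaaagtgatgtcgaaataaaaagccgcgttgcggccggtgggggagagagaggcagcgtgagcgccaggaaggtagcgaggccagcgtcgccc
TMPO-AS1: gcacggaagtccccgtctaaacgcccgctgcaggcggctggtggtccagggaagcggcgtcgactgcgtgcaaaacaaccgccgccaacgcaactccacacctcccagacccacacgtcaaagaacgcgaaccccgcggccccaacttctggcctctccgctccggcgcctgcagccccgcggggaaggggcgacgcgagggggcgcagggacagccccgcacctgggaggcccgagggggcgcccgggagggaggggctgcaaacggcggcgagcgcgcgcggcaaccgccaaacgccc
TMPO: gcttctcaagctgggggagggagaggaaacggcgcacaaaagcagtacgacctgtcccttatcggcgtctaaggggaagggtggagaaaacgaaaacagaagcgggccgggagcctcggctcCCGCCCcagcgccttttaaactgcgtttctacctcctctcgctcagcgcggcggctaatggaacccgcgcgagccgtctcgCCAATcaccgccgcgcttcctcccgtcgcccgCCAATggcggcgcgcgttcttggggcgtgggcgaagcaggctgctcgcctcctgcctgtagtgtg
TUBA1B-AS1: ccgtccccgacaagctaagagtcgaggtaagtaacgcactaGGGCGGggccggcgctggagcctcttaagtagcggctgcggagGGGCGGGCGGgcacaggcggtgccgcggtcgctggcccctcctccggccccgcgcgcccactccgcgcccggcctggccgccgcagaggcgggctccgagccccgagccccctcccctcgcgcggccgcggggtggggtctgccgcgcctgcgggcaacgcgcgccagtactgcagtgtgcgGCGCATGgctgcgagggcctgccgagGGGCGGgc

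Over all 27305 RefSeq promoter windows, 11.95% held a TATA box, 44.6% a GC box, 35.7% a CCAAT box, 10.7% an ETS core, 4.67% the NRF1 letters and 3.03% a YY1 core. The CARD8-AS1 window was 35% G and C with 3 CpG dinucleotides and held a TATA box and a CCAAT box, while that of CARD8 was 40% G and C. The other windows printed were richer in G and C, from 65% in TMPO to 78% in TUBA1B-AS1, and the TMPO-AS1 window held none of these motifs. Such matches are a description of the letters and not of factor binding. RefSeq promoters could be matched for 516 (40.6%) of the antisense lncRNAs and for 73.8% of the nearest start genes. A comparison of motifs or base composition between sets would need 80%, so that check is void and was not made.

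RefSeq also gives a second view of the membership. For 438 antisense lncRNAs with a promoter on both sides, the RefSeq gene also covered the RefSeq start of the coding gene in 304 (69.4%), and in 134 it did not. The median log2 relative half-life was -2.33 over 60 of the former with an estimate and -2.10 over 25 of the latter, of which 56 and 21 were below the median mRNA by the test described below. Among the lncRNAs named below, ARHGAP5-AS1, HOXA-AS3, HOXA11-AS, LAMTOR5-AS1, NUTM2A-AS1, PPP1R35-AS1, STX18-AS1, TUBA1B-AS1 and WAC-AS1 were of the latter kind for their nearest start gene.

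The antisense lncRNAs were mostly multi-exonic and long. Spans ran from 1014 to 1375317 bp with a median of 16509 bp, and 105 had a single exon, 366 had 2 exons and 800 had 3 or more. The lncRNA's own start lay a median of 1237 bp from the covered coding start (interquartile range 544 to 6983 bp), and from there the transcript ran on for a median of 11046 bp beyond the coding gene. Of the 1271, 192 covered their nearest start gene whole and 1079 began inside it. Most covered 1 coding start, but 126 covered several, up to 11. At the edge of the rule, 55 of the lncRNAs overlapped the start by 100 bp or less on one side, and 42 other antisense lncRNAs stopped short of one by 100 bp or less. Some named below are among the 55. ENSG00000276900, ENSG00000273702, ENSG00000290791 and ZNF542P began only 4, 30, 36 and 62 bp from the coding start and ran almost wholly away from the coding gene. ENSG00000241357 and ZEB2-AS1 ended 13 and 54 bp beyond the coding start.

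Transcription of these loci was detected more often than their RNA. PRO-seq gave at least 1 count for 1098 antisense lncRNAs (86.4%) and RNA-seq for 817 (64.3%). Over all TUs these shares were 73.2% and 68.1%, and over mRNAs 88.1% and 85.0%. For the antisense lncRNAs over gene ends they were 85.2% and 61.2%, and for those inside genes 60.2% and 42.8%. Of the start-spanning lncRNAs, both assays gave counts for 759, PRO-seq alone for 339, RNA-seq alone for 58 and neither for 115. Counts were low, with medians of 17 in PRO-seq and 1 in RNA-seq over all 1271. Together the lncRNAs took 1.04% and 1.05% of the PRO-seq counts on TUs in the 2 libraries, but only 0.105% to 0.107% of those in the 4 RNA-seq libraries. The ranges of the 2 assays were far apart. PRO-seq was counted along the span (median 16509 bp) except its ends, and RNA-seq over exons only (median 919 bases). Detection and count shares therefore also depend on the length counted, and its part was not tested.

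Across the 759 antisense lncRNAs with counts in both assays, PRO-seq and RNA-seq TPM were correlated with a Spearman rho of 0.709 (a description across TUs that share libraries, with no test). It was 0.568 to 0.624 with single libraries, 0.446 with at least 10 counts in each assay and 0.114 at thresholds of 20 and 2 TPM. With at least 1 count in each assay it was 0.738 for the lncRNAs over gene ends, 0.628 for those inside genes and 0.835 for mRNAs. A relative half-life was estimated where PRO-seq exceeded 10 TPM and RNA-seq 1 TPM. Of 307 antisense lncRNAs past the PRO-seq threshold, 189 (61.6%) also passed in RNA-seq, against 95.4% of mRNAs. That share was 73.5% for the lncRNAs over gene ends and 39.5% for those inside genes. The RNA-seq threshold leaves out the scarcest RNAs, so values over these 189 describe only the more abundant part of the set. Among those 189 the median level was 41.3 TPM in PRO-seq, close to the 47.5 TPM of mRNAs past the thresholds. In RNA-seq it was 3.49 TPM, against 31.2 TPM for mRNAs.

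**Figure D1:**
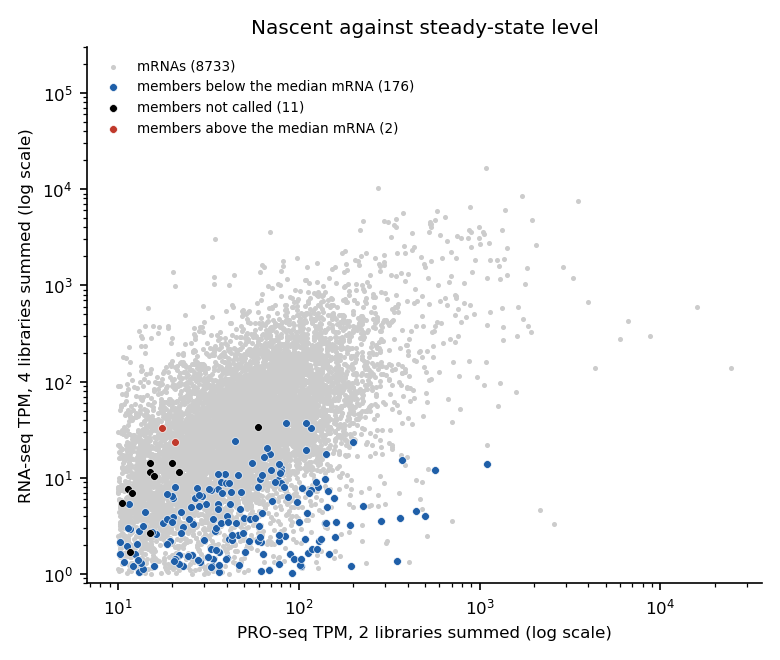
Nascent level (PRO-seq TPM, x axis, log scale) against steady-state level (RNA-seq TPM, y axis, log scale) for TUs past both thresholds. Grey points are mRNAs and coloured points are the 189 antisense lncRNAs by their call, of which 176 were below the median mRNA ratio, 11 were not called and 2 were above it. Most of the lncRNAs lie within the lower part of the mRNA cloud.

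The RNA-seq to PRO-seq ratio of each TU was tested against that of the median mRNA with edgeR's quasi-likelihood test, fitted over 10053 TUs with Benjamini-Hochberg adjustment at 0.05. Values given with ± SE are edgeR's estimates of this log2 ratio, with the SE derived from the F statistic of the test. They can differ slightly from the TPM ratios used for medians, ranges and start genes, as for PPP1R35-AS1 (-6.52 and -6.69). Of the 189 start-spanning antisense lncRNAs, 176 (93.1%) were below the median mRNA and 2 (1.06%) above it, whereas over all TUs tested 50.4% were below and 40.0% above. The median log2 relative half-life was -2.88 (interquartile range -4.03 to -1.74, from -7.34 to 1.55), and -0.24 over all TUs. Pairing each RNA-seq library alone with each PRO-seq library gave medians between -2.89 and -2.65. Across the 183 with counts in every library, the SD of the relative half-life was 1.64 on the log2 scale between lncRNAs and a median of 0.421 between libraries. Antisense lncRNAs elsewhere on coding genes were low too, with a median of -2.56 and 89 of 100 below for those over gene ends and -3.58 and 101 of 111 for those wholly inside, and no difference between these classes was tested.

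Exon number and length went with the value. The 40 single-exon antisense lncRNAs with an estimate had a median of -3.87 and all 40 were below the median mRNA. The 50 with 2 exons had a median of -3.22 and the 99 with 3 or more had -2.32. By span, medians were -4.27 for 32 under 2 kb, -3.23 for 77 of 2 to 10 kb, -2.10 for 55 of 10 to 50 kb and -1.61 for 25 of 50 kb or more. The PRO-seq counts exclude 500 bp next to either end of a transcript, so lncRNAs under 2 kb rest on fewer than 1000 counted bases. They were 16.9% of the 189, against 1.35% of mRNAs with an estimate. The medians of mRNAs of the same span and exon class lay above those of the antisense lncRNAs in each of the 5 classes. Spliced lncRNAs of 10 kb or more had a median of -1.93 (n = 80) against 0.01 for 7037 mRNAs, and single-exon lncRNAs of 2 to 10 kb had -3.46 (n = 24) against -1.69 for 83 mRNAs.

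**Figure D2:**
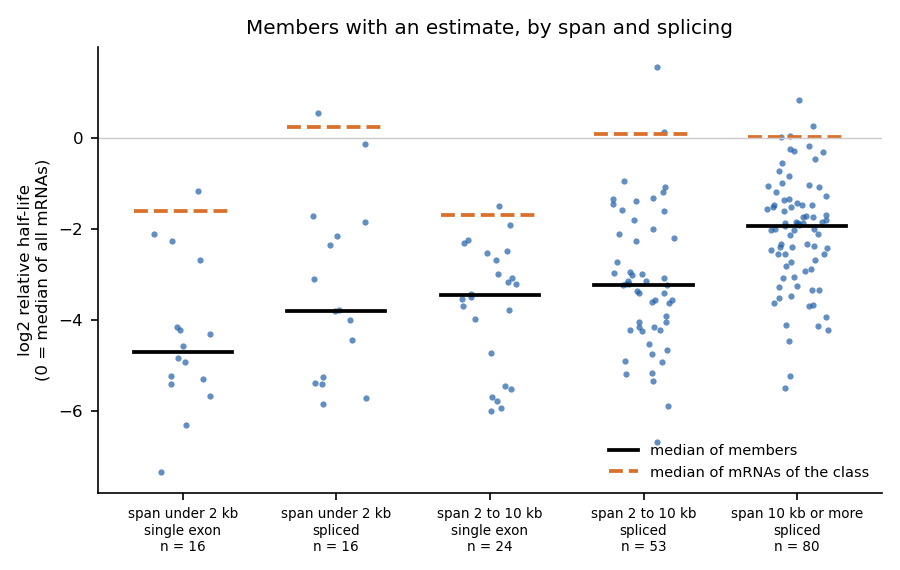
Log2 relative half-life (y axis, 0 is the median of all mRNAs) of the 189 antisense lncRNAs, 1 point each with random sideways spread, in 5 classes of span and splicing. Black lines are class medians, from -4.71 for single-exon lncRNAs under 2 kb to -1.93 for spliced ones of 10 kb or more, and dashed lines are the medians of mRNAs of the same class, which lie higher in each.

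By distance from the lncRNA's own start to the coding start, which in the farther classes can lie beyond the coding gene, medians were -3.15 for own starts within 1 kb of the coding start (n = 109), -2.98 for 1 to 5 kb (n = 42), -2.68 for 5 to 20 kb (n = 20) and -1.88 beyond 20 kb (n = 18). These classes differ in span as well, and the part of span in the order was not tested. The 31 that covered the whole start gene had a median of -2.13, and the 158 that began inside it -3.00. The 34 that shared no exon base with a coding gene had a median of -2.12, with 30 below and 0 above. Their spans still overlap coding genes, so the strand limit on PRO-seq counts holds for them too.

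The most abundant antisense lncRNAs in RNA-seq were C10orf95-AS1 and MAPKAPK5-AS1. C10orf95-AS1 was at 35.8, 39.4, 36.1 and 36.7 TPM in the RNA-seq libraries and at 92.1 and 77.7 TPM in PRO-seq. MAPKAPK5-AS1 runs from the start region of MAPKAPK5, a stress-activated kinase gene, and was at 35.4, 37.8, 37.1 and 37.7 TPM in RNA-seq and 119 and 101 TPM in PRO-seq. In both the 4 RNA-seq values lay within a narrow band below the PRO-seq values. Their log2 relative half-lives were -0.55 ± 0.13 (SE; adjusted p = 1.9e-04, edgeR) and -0.94 ± 0.15 (adjusted p = 8.3e-07). With a filter of at least 1 count in each assay both calls were lost (edgeR), C10orf95-AS1 at 0.11 (adjusted p = 0.49) and MAPKAPK5-AS1 at -0.28 (adjusted p = 0.093), and with at least 20 counts in all that of C10orf95-AS1 was too (adjusted p = 0.43). The start gene C10orf95 itself had 12 RNA-seq and 17 PRO-seq counts over all libraries, while MAPKAPK5 was at -1.71.

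Only CARD8-AS1 and KRT10-AS1 were above the median mRNA in that test. CARD8-AS1, which begins inside the gene for the inflammasome sensor CARD8 and leaves it across its start, was at 31.3, 34.7, 36.6 and 30.3 TPM in RNA-seq and at 20.3 and 14.9 TPM in PRO-seq. Its RNA-seq TPM exceeded its PRO-seq TPM in every library. Its log2 relative half-life was 1.55 ± 0.32 (adjusted p = 6.3e-05, edgeR), on 887 RNA-seq but only 14 PRO-seq counts. CARD8 on the other strand was at -1.43, with 8.90 TPM in RNA-seq and 37.4 TPM in PRO-seq, so the order of the strands was opposite in the 2 assays. KRT10-AS1 spans the start of KRT10, a keratin of the epidermis, and was at 24.7, 23.1, 23.4 and 23.6 TPM in RNA-seq and 20.6 and 20.7 TPM in PRO-seq. The libraries of an assay hardly differed for it. Its value of 0.84 ± 0.12 (adjusted p = 1.7e-07, edgeR) was next to that of KRT10, 0.81. When a difference of more than 2-fold was asked for, CARD8-AS1 alone remained above.

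GATA2-AS1 was among the highest in both assays. It crosses the start of GATA2, a transcription factor gene of blood stem and progenitor cells, and was at 24.1, 24.4, 23.1 and 20.9 TPM in RNA-seq and 207 and 194 TPM in PRO-seq. Every PRO-seq value was several-fold above every RNA-seq value. Its log2 relative half-life was -2.47 ± 0.08 (adjusted p = 2.0e-22, edgeR), near the -2.25 of GATA2, and the coding gene was higher than its antisense partner in both assays, at 48.3 TPM in RNA-seq and 357 TPM in PRO-seq.

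Among the other abundant ones, EPS15-AS1 crosses the start of the endocytic adaptor gene EPS15 and was at 36.9, 32.3, 37.0 and 27.7 TPM in RNA-seq and 60.7 and 57.8 TPM in PRO-seq. Its value of -0.18 ± 0.12 did not pass the test (adjusted p = 0.15, edgeR), and EPS15 was at 0.70. LAMTOR5-AS1, at 28.8, 37.6, 30.1 and 34.8 TPM in RNA-seq, was transcribed at 118 and 115 TPM and had a value of -1.18 ± 0.08. It covers the starts of SLC16A4, a monocarboxylate transporter gene at 2.95 TPM in PRO-seq, and of LAMTOR5, a Ragulator subunit gene at 108 TPM. NUTM2A-AS1 and ZNF542P have near copies in the genome, among which reads can be split. Their values of -0.23 ± 0.10 and -1.07 ± 0.10 are uncertain, and the part of such splitting was not tested. The call of NUTM2A-AS1 was lost without RNA-seq replicate 1 (adjusted p = 0.13, edgeR), without RNA-seq replicate 4 (0.054) or without PRO-seq replicate 1 (0.053). WAC-AS1, over the start of WAC, was at 18.2 to 21.0 TPM in RNA-seq with 235 and 289 PRO-seq counts, and had a value of -1.87 ± 0.10.

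**Figure D3:**
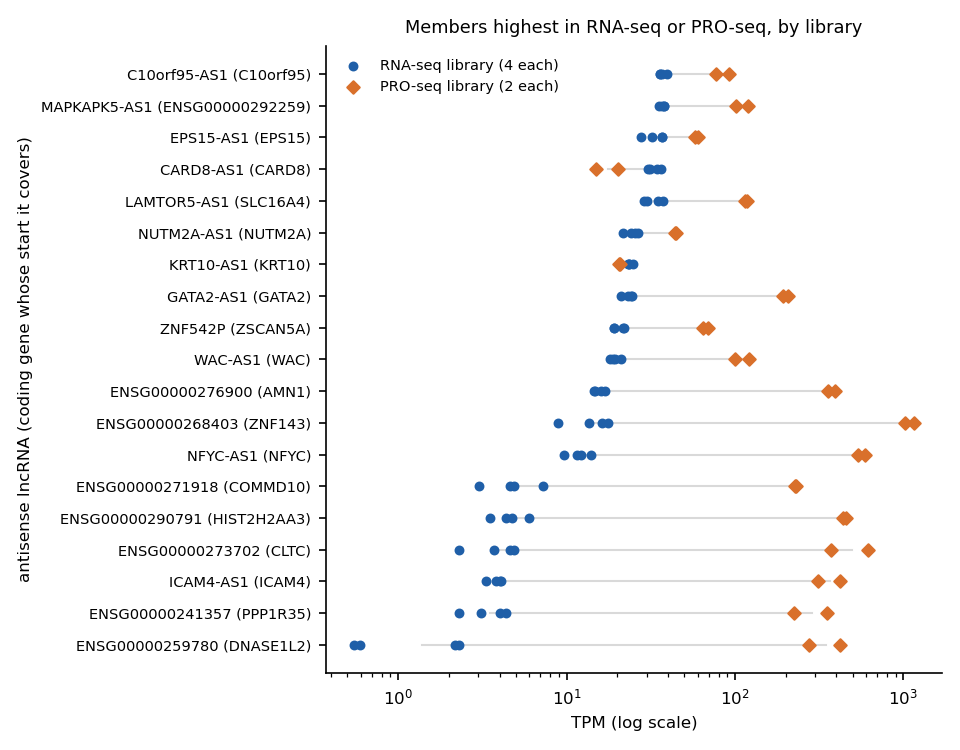
TPM (x axis, log scale) in each of 4 RNA-seq (circles) and 2 PRO-seq (diamonds) libraries for the antisense lncRNAs highest in either assay, with the nearest start gene in brackets, ordered by RNA-seq level. RNA-seq values of the more abundant lncRNAs sit close together, CARD8-AS1 and KRT10-AS1 are the ones whose PRO-seq values lie at or left of the RNA-seq values, and from ENSG00000276900 downward PRO-seq lies at least 10-fold to the right.

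Several of the antisense lncRNAs highest in PRO-seq had RNA-seq levels far below their PRO-seq levels. The ratio is divided by the PRO-seq level, so choosing the highest in PRO-seq in itself favours low ratios. NFYC-AS1 crosses the start of NFYC, which encodes a subunit of the CCAAT-binding factor NF-Y, and was at 590 and 540 TPM in PRO-seq but at 11.5, 12.2, 9.71 and 13.98 TPM in RNA-seq. Its log2 relative half-life was -4.93 ± 0.17 (adjusted p = 7.7e-22, edgeR), against -0.26 for NFYC. ENSG00000268403, a single-exon lncRNA over the start of the zinc finger factor gene ZNF143, reached 1030 and 1158 TPM in PRO-seq. That level rests on 88 counts over 154 counted bases, and its RNA-seq values were 8.91, 16.3, 13.6 and 17.6 TPM. ENSG00000276900, over the start of AMN1, was at 359 and 391 TPM in PRO-seq and 14.7, 14.8, 16.9 and 16.0 TPM in RNA-seq. ENSG00000271918 lies over the start of COMMD10, was at 230 and 226 TPM in PRO-seq and 7.22, 4.61, 3.04 and 4.89 TPM in RNA-seq, and had a value of -4.84 ± 0.30, whereas COMMD10 was at 2.80.

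The lowest relative half-lives among those tested belonged to 6 lncRNAs, of which 4 were single-exon. ENSG00000259780, over the start of the deoxyribonuclease gene DNASE1L2, was at 275 and 422 TPM in PRO-seq and at 2.31, 0.597, 2.19 and 0.545 TPM in RNA-seq, a value of -7.30 ± 0.50 (adjusted p = 2.1e-14, edgeR). It rests on 41 PRO-seq counts over 225 counted bases and on 23 RNA-seq counts, and 1152 of its 1225 exon bases lie under coding exons. DNASE1L2 was itself below the median mRNA, at -3.23. PPP1R35-AS1, over the start of the centriole protein gene PPP1R35, was at 193 and 195 TPM in PRO-seq on 132 counts and had 5 RNA-seq counts, a value of -6.52 ± 0.33. A second lncRNA across the same start, ENSG00000241357, had -5.64 ± 0.44 on 38 PRO-seq and 16 RNA-seq counts, and PPP1R35 itself was at 0.24 and was not called. Coding exons lie over 179 of the 303 exon bases of PPP1R35-AS1 and 295 of the 333 of ENSG00000241357. ENSG00000273702, over the start of the clathrin heavy chain gene CLTC, had -6.29 ± 0.42. That value rests on 42 PRO-seq counts over 162 counted bases and on 64 RNA-seq counts. ENSG00000290791, over the start of the histone H2A gene HIST2H2AA3, had -5.98 ± 0.13 on 611 PRO-seq and 223 RNA-seq counts, in a duplicated histone region where reads can be split. No value was available for CLTC or HIST2H2AA3. ICAM4-AS1 covers the whole of ICAM4, a red cell adhesion and blood group gene. It was at 310 and 419 TPM in PRO-seq and 3.84, 4.09, 3.33 and 4.04 TPM in RNA-seq, a value of -5.92 ± 0.15, while ICAM4 was at 222 TPM in RNA-seq and 1.18. Of the 3219 exon bases of ICAM4-AS1, 2254 lie under coding exons. ENSG00000241666, over the start of RCSD1, had -5.87 ± 0.22, and RCSD1 was also below the median mRNA, at -1.04.

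Some loci gave PRO-seq counts and no RNA-seq count at all. Of the 307 past 10 TPM in PRO-seq, 7 were of this kind, a share near that over all TUs (272 of 11435). KIF5C-AS1, antisense across the start of the neuronal kinesin gene KIF5C, had 198 and 211 PRO-seq counts (36.8 TPM). A count of 0 over the 4 RNA-seq libraries allows up to 3 counts, or 0.281 TPM, which puts its log2 relative half-life at or under -6.39, a limit that covers counting error only. ENSG00000285632, over DDHD2, had 51 and 52 PRO-seq counts and a limit of -6.47. The other 5 had 1 to 14 PRO-seq counts. These 7 are named or counted because they lacked RNA-seq counts, which was seen in the data.

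Of a list of 58 antisense lncRNA names known from other work, 19 met the rule. An estimate was reached by 7 of the 19, against 14.9% of all start-spanning lncRNAs and 27.0% of all TUs, and the 7 were below the median mRNA. TMPO-AS1, across the start of the nuclear lamina gene TMPO, was at 169 and 153 TPM in PRO-seq and 3.68, 4.28, 2.17 and 3.28 TPM in RNA-seq. The RNA-seq values lie far below the PRO-seq values in every library. Its log2 relative half-life was -4.89 ± 0.19 (adjusted p = 1.4e-20, edgeR), whereas TMPO was at 2.24, so the strands lay on opposite sides of the median mRNA. ST7-AS1 was likewise at -5.22 ± 0.27 against 1.25 for ST7. DLEU2, a long transcript from a region often deleted in chronic lymphocytic leukemia, had 5947 PRO-seq counts, 80.6 and 79.8 TPM, and 11.4 to 14.03 TPM in RNA-seq, a value of -2.02 ± 0.07. FGD5-AS1, which covers the start of the nuclear receptor gene NR2C2, was at -1.42 ± 0.14 against -2.94 for NR2C2.

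At the lower levels, ZEB1-AS1 had 39 and 67 PRO-seq counts and no RNA-seq count, although ZEB1, an EMT transcription factor gene, was at 5.56 TPM in RNA-seq. CDKN2B-AS1, DLX6-AS1 and MYCNOS had 8, 15 and 9 PRO-seq counts and none in RNA-seq. CDKN2B-AS1 lies in a region of chromosome 9 that is deleted in K562 cells, and its start genes CDKN2A and CDKN2B had 5 and 3 PRO-seq counts. For it, missing DNA and low transcription cannot be told apart by these counts. LOXL1-AS1 had 22 and 1. ZEB2-AS1 passed the PRO-seq but not the RNA-seq threshold, at 17.1 and 0.268 TPM, while ZEB2 was transcribed at 329 TPM. ARHGAP5-AS1, at 47.4 TPM in PRO-seq, missed the RNA-seq threshold at 0.915 TPM. STX18-AS1 missed the PRO-seq threshold, at 5.4 TPM.

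The HOX loci, chosen by name after levels had been seen, had 9 antisense lncRNAs across a HOX start at varied levels, also within a cluster. HOXB-AS1, over HOXB2, was at 8.61, 9.67, 9.98 and 8.28 TPM in RNA-seq and 35.4 and 38.6 TPM in PRO-seq. Its value of -1.38 ± 0.20 (adjusted p = 2.3e-07, edgeR) was next to that of HOXB2, -1.37. HOXB-AS3, over HOXB4 and HOXB5, had 204 PRO-seq and 13 RNA-seq counts, and HOXB-AS4 had 18 and 5. HOXC-AS2, over HOXC9, had 23 PRO-seq and 7 RNA-seq counts. HOTAIR and HOXD-AS2 had 1 PRO-seq count each, HOXC13-AS had 1 count in each assay, HOXA11-AS had 1 RNA-seq count and HOXA-AS3 had none in either assay. Counts of 0 or 1 in an assay do not separate these from no expression. Zinc finger genes, a large family of transcription factors, had 49 antisense lncRNAs across a start, of which 12 had an estimate, with a median of -2.91 and all 12 below the median mRNA, close to the -2.88 and 93.1% of the whole set.

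Each antisense lncRNA was then set beside its nearest start gene, which asks whether the 2 strands of a shared start region are transcribed and retained alike. In 938 pairs with PRO-seq counts on both strands, PRO-seq TPM of lncRNA and start gene had a Spearman rho of 0.544, a description that shares libraries, chromatin region and, for 20 start genes, more than 1 lncRNA. It was 0.431 with at least 10 counts and -0.015 among pairs in which both exceeded 20 TPM, a setting that narrows the range of both values. The lncRNA was past 10 TPM in 228 of 529 pairs (43.1%) in which the start gene was, and in 65 of 682 pairs (9.53%) in which it was not. The lncRNA was the lower strand in PRO-seq by a median of -1.39 on the log2 scale and the higher one in 310 pairs (33.1%). In RNA-seq, over 706 pairs, rho was 0.357, the median log2 ratio -3.69 and the lncRNA the higher in 152 (21.5%). Whether strand was used in the counting is not stated, so reads from bases shared by a pair may enter both values. The part of such reads in these correlations and shares was not tested.

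By distance between the starts, Spearman rho was 0.545 where the starts lay within 1 kb (n = 417), 0.570 for 1 to 5 kb (n = 236), 0.354 for 5 to 20 kb (n = 126) and 0.151 beyond (n = 159), and no difference between these classes was tested. The median log2 ratio of lncRNA to start gene was -1.80 in the nearest class and -0.34 in the farthest. The strand limit on PRO-seq counts holds for each of these classes.

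**Figure D4:**
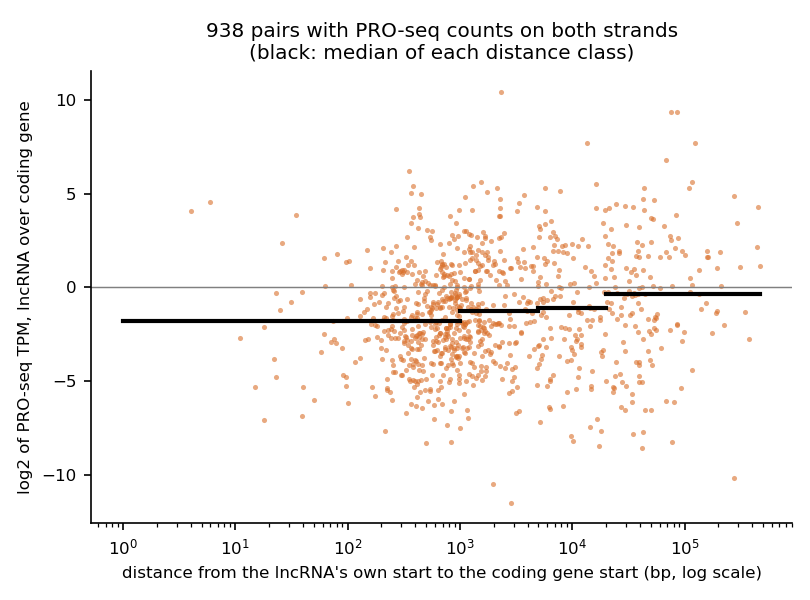
Log2 ratio of PRO-seq TPM of the antisense lncRNA to that of its start gene (y axis) against the distance between their starts in bp (x axis, log scale) for 938 pairs with counts on both strands. Black lines are the medians of the 4 distance classes, -1.80, -1.29, -1.13 and -0.34, and points scatter widely on both sides of 0 at every distance.

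In 65 pairs the lncRNA passed 10 TPM in PRO-seq and its nearest start gene did not. Some of these start genes had abundant RNA without any PRO-seq count, such as SPAG5 at 108 TPM and HSD17B1 at 27.9 TPM in RNA-seq. A start gene under the PRO-seq threshold, here and in the shares given above, is therefore not always a silent one, and the reason was not tested. The following are named as examples picked from their values. HEXIM2-AS1 had 669 PRO-seq counts (127 TPM) over HEXIM2, which at 8.95 TPM lay just under the threshold. ENSG00000230258 had 3730 (64.6 TPM) and reached 16.5 TPM in RNA-seq across KCNJ16, a potassium channel gene with 4 PRO-seq counts.

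Relative half-lives on the 2 strands were not alike. In 134 pairs with an estimate on both strands, the lncRNA was lower than its start gene in 115 and higher in 19, with a median difference of -3.02 on the log2 scale (interquartile range -4.48 to -1.17). With single libraries the median was between -3.08 and -2.86. The Spearman rho of the 2 values across pairs was 0.076. In the same pairs the median log2 ratio of lncRNA to start gene was -0.70 in PRO-seq and -3.28 in RNA-seq, with the lncRNA higher in 51 and 12 pairs. Where lncRNA and coding exons shared no base, 17 pairs remained, with a median difference of -1.31 and the lncRNA lower in 14. The 117 pairs with shared exon bases had a median of -3.18, with the lncRNA lower in 101. Spans overlap in both kinds of pair, so the strand limit on PRO-seq counts holds for both. Beyond 20 kb between the starts only 4 pairs were left, with a median of 0.68 and 1 lower.

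**Figure D5:**
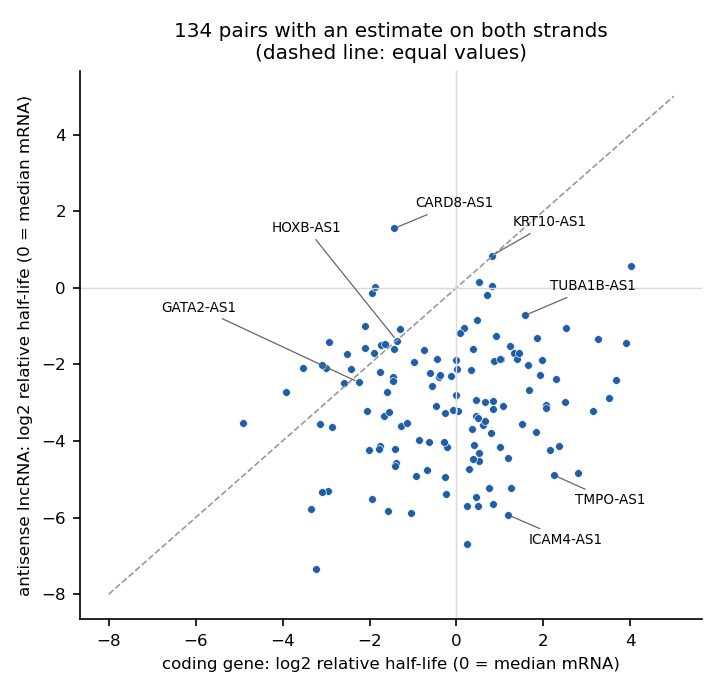
Log2 relative half-life of the antisense lncRNA (y axis) against that of its nearest start gene (x axis) for 134 pairs with estimates on both strands, where 0 is the median mRNA and the dashed line marks equal values. Points lie below the line in 115 pairs and above it in 19, CARD8-AS1 among the latter, with GATA2-AS1, HOXB-AS1 and KRT10-AS1 near the line and TMPO-AS1 and ICAM4-AS1 far below it.

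The start genes lay nearer to mRNAs at large than to the lncRNAs. Of 1341 in the table, 534 (39.8%) had an estimate, against 46.1% of mRNAs, and 49.8% of these were below and 41.6% above the median mRNA, next to 44.9% and 45.4% of mRNAs. Their median log2 relative half-life was -0.22. No test between start genes and other mRNAs was run. TUBA1B, an abundant alpha-tubulin gene at 1818 TPM in RNA-seq, was at 1.58, and TUBA1B-AS1 across its GENCODE start was at 7.998, 5.83, 11.0 and 8.78 TPM in RNA-seq and 20.2 and 21.3 TPM in PRO-seq. Its value of -0.72 ± 0.24 (adjusted p = 0.0059, edgeR) was among the highest past the test, with those of GUSBP11 (-0.45 ± 0.15) and C10orf95-AS1, but 211 of its 418 exon bases lie under coding exons. Its call was lost with DESeq2 (adjusted p = 0.077), with RNA-seq replicates 1 and 3 alone (edgeR, 0.096), and with filters of 1 count in each assay (0.87) or 20 in all (0.33). That of GUSBP11 was lost with DESeq2 (adjusted p = 0.052) and with those filters (edgeR, 0.22 and 0.94). GUSBP11 resembles a glucuronidase gene, so that reads may be split among copies.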

How the data were processed

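Reads were trimmed with Cutadapt, aligned to GRCh38 with HISAT2 and counted with HTSeq, per the labels and the study's methods. No versions of these tools were found in the sources, nor whether HTSeq used strand (not given in the sources used). The authors deposited raw counts per transcript: counts on exons for 4 RNA-seq libraries and, for 2 PRO-seq libraries, counts over the transcript without 500 bp at each end. Rows naming no TU held 66.5% to 68.6% of RNA-seq and 86.5% and 88.6% of PRO-seq counts and were left out.

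Of 42371 counted transcripts, 37339 were joined by ID to GENCODE v44 lifted to GRCh37, from which classes, exon lengths and distances between starts were taken. Printed coordinates are GRCh38.p14 from RefSeq. TPM (per base, scaled to equal totals) used exon length for RNA-seq and span less 1000 bp for PRO-seq, from counts summed over libraries. The ratio of both TPM values, RNA-seq divided by PRO-seq, gave the relative half-life where they exceeded 1 and 10 TPM. The ratio was tested with edgeR 4.0.16 (quasi-likelihood, length offsets, centred on the median mRNA; Benjamini-Hochberg at 0.05, R 4.3.3), and the script was tested on simulated data; DESeq2 1.42.0 was an alternative. Named lncRNAs were the 10 highest in each assay with at least 10 counts in both, the 6 highest and 6 lowest relative half-lives among those called on the same side in replicates 1 and 2, and a list of 58 known names, 40 in all, with their start genes. Some of these, and some marker genes, are not reported here. The lncRNAs, lists and tests were chosen with earlier results of these data known. Replicate numbers are shared between assays, but the deviations of replicate 1 from 2 had a correlation of -0.007 over 9962 TUs, so libraries of an equal number were not treated as pairs. Alternatives covered normalization, thresholds, PRO-seq length, membership and leaving out each library.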

Additional observations from a re-analysis of the deposited data

How the results depend on the processing

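Of the 176 start-spanning antisense lncRNAs called below the median mRNA, 172 kept the call with DESeq2 and 156 with a 2-fold difference tested, which left 1 above. With a replicate block, 174 were below and 2 above, and the pairing changed the call of NUTM2A-AS1 alone among the named ones (adjusted p = 0.077, edgeR). Library totals, and a PRO-seq length taken as span less 500 bp with the same counts, left the numbers of calls within 1.5 times. A filter of at least 1 summed count in each assay gave 464 below and 34 above of 759, and at least 20 counts over the 6 libraries gave 517 and 22 of 667. There the median mRNA moved by -0.63 and -0.40, and C10orf95-AS1, GUSBP11 and NUTM2A-AS1 turned to 0.11, 0.21 and 0.43 under the former. Thresholds of 20 and 2 TPM gave 111 and 1 of 114. Without shared exon bases 30 and 0 were called of 34. DESeq2 lost the calls of NUTM2A-AS1, TUBA1B-AS1 and GUSBP11 (adjusted p = 0.14, 0.077 and 0.052). Which of these depends on depth was not tested.

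The median log2 relative half-life of the lncRNAs against mRNAs stayed below 0 in each alternative run. It was -2.32 with 1 count in each assay, -2.42 with 10 (295 estimates), -2.65 at 20 and 2 TPM, and -2.46 with a pseudocount of 1 TPM. With a PRO-seq length of span less 500 bp and the same counts it was -2.48. It was -2.12 without shared exon bases, -3.03 with the start of any coding transcript covered, -2.56 with 1000 bp or more left for PRO-seq, -2.73 with RNA-seq replicates 2 and 4 alone, and -2.88 to -2.74 leaving out each library. Against start genes it was, in the same order to 1000 bp left and without the 20 and 2 TPM setting, -2.30, -2.80, -2.70, -2.78, -1.31, -3.24 and -2.79. It was -3.13 with RNA-seq replicates 1 and 3 alone, a split chosen after the data were seen, and -3.08 to -2.90 leaving out each library.

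Between the assays, Spearman rho across the lncRNAs was 0.446 with 10 counts, 0.114 at 20 and 2 TPM, 0.681 without shared exon bases, 0.684 with any coding transcript start, 0.653 and 0.661 with RNA-seq replicates 1 and 3 or 2 and 4 alone, and 0.676 to 0.710 leaving out each library. That of PRO-seq TPM between lncRNA and start gene was 0.431 with 10 counts, turned to -0.015 above 20 TPM, was 0.389 without shared exon bases and 0.490 with any coding transcript start, and was 0.511 and 0.536 with either PRO-seq library left out. For these changes the cause was not tested, beyond the fewer TUs that stricter settings leave. Low RNA-seq counts, 6 in the median lncRNA seen in both assays, limit what single loci can show.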
